A study of Mus musculus with 12 samples.

Results

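The genes described here are the mouse olfactory receptor genes whose microarray probe was called above background in most of a set of brain samples. They were chosen from the measured values. A gene entered when its symbol, found through the RefSeq accession of its probe, began with Olfr and the brightest of its probes was called well above background by the scanner software on 9 or more of 12 arrays. The array carried named probes for 886 olfactory receptor genes, and 508 of them (57.3%) met the rule. Of the 886, 327 were above background on all 12 arrays and 155 on 0 arrays.

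Olfactory receptors are G protein-coupled receptors that bind odorants. Each olfactory sensory neuron of the nose expresses a single receptor gene and signals through the G protein subunit encoded by Gnal, the adenylyl cyclase encoded by Adcy3 and a cyclic nucleotide-gated channel, and its axon ends in the olfactory bulb. The cell bodies of these neurons lie in the nasal epithelium and not in the brain, so that the brain regions sampled here contain their axon endings at most, in the bulb.

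The study compared IL-18 knockout (KO) and wild-type (WT) mice. IL-18 is a cytokine of the interleukin-1 family. All mice were labelled C57BL/6 males of 12 weeks, and the design text describes F2 littermates from a cross of IL-18-/- males with C57BL/6J females, killed under ether anaesthesia and perfused with saline. The knockout is not limited to a cell type or region. Hippocampus, amygdala, hypothalamus, striatum, prefrontal cortex and olfactory bulb were cut from coronal slices, and RNA of 5 mice was pooled for each region and genotype and hybridised to 1 array, which gave 12 single-colour Agilent arrays. A pool carries no information on the spread between mice, and whether the same mice gave the pools of several regions is not stated in the labels. Both genotypes of a region shared a slide, 6 slides in all, so that region and slide cannot be told apart. Levels are log2 of the scanner software's processed signal over the 75th percentile of the array, so 0 is the 75th percentile and each step of 1 is 2-fold.

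The 75th percentile ranged from 208 on the striatum WT array to 768 on the amygdala KO array, and 60.8% to 81.3% of the spots were above background. The knocked-out gene, Il18, was lower on the KO array in 6 of 6 regions, by 3.73 to 5.10. Markers of olfactory bulb neurons were higher in the bulb in 11 of 13 tested, and markers of the hypothalamus were higher in the hypothalamus in 12 of 12. The array labelled amygdala WT went against its label in those markers. It held Pmch, a hypothalamic peptide, at 6.02, beside 5.92 and 5.93 on the hypothalamus arrays and -1.64 on the amygdala KO array. The linear levels of 14 hypothalamus markers summed to 235 on amygdala WT and to 203 and 239 on the hypothalamus arrays. The sum was 22.1 on amygdala KO and 3.33 to 6.82 on the bulb, prefrontal cortex, striatum and hippocampus arrays. The amygdala KO array thus carried some of these markers too, among them Pomc at 3.62. Its median absolute difference over the 508 genes was 0.236 to the amygdala KO array and 0.246 to the hypothalamus WT array. It lay below the latter in 379 genes (74.6%), and in 61.2% of other genes weighted to the same brightness. Among other genes weighted to the same brightness these 2 distances were 0.328 and 0.154, and among 8742 other genes brighter than the 75th percentile 0.195 and 0.0741. No spread of these distances was computed. For amygdala against the other regions, the share, the median and some of the named genes are given with and without it. The other named genes are given with it only, and the differences between the 2 amygdala arrays all rest on it.

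Olfactory receptor probes were dim. The mean level over the 12 arrays ran from -4.79 to 2.32 with a median of -2.98, and 413 genes (81.3%) lay below -2. These values were used to choose the genes and describe them only. The brightest probes were those of Olfr571 (mean 2.32), Olfr279 (0.83), Olfr744 (0.22), Olfr570 (0.14) and Olfr971 (0.05), followed by Olfr549, Olfr508, Olfr1350, Olfr656 and Olfr63 down to -0.55. Probes differ in how well they bind, so this is an order of probe brightness and not of transcript abundance. Olfr571 and Olfr570 are neighbours in the gene order, and on the other side of Olfr571 the probe of Olfr572 had a mean of -2.91.

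Olfr571 stood at 2.78 and 2.53 in striatum on the WT and KO arrays, 2.74 and 2.53 in prefrontal cortex, 2.53 and 2.49 in hippocampus, 2.15 and 2.11 in bulb, 2.09 and 2.01 in hypothalamus and 1.99 and 1.87 in amygdala. Its levels were lowest in the amygdala and hypothalamus, and those 4 arrays did not overlap with the other 8. Olfr570 stood at 0.69 and 0.98 in hippocampus and at -0.48 and -0.44 in amygdala. It was lowest on the 4 amygdala and hypothalamus arrays too, at -0.37 or below, and at -0.09 or above on the other 8.

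At the edge of the rule, 42 genes were above background on exactly 9 arrays and 40 on exactly 8. Among the former the mean levels ran from -4.79 (Olfr1014) and -4.77 (Olfr299) to -3.57 (Olfr486) and -3.35 (Olfr237). Among the latter, left out by the rule, they ran from -4.97 (Olfr575) and -4.92 (Olfr120) to -3.91 (Olfr623) and -3.52 (Olfr320). The levels on both sides of the rule overlapped. Other families of chemoreceptors were above background on 9 or more arrays in 43 of 109 Vmn1r genes (39.4%), 4 of 11 Vmn2r genes, 3 of 13 Tas2r genes and 3 of 4 Taar genes, and other named genes in 84.0%.

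Promoter windows of 4 genes are shown because their levels head the sections below: Olfr571 is the brightest, Olfr821 and Olfr1065 stood highest in striatum, and Olfr689 was high in the bulb and low in the amygdala. Each runs from 250 bases before the annotated start to 50 after it, 5′ to 3′ on the gene's strand (RefSeq, GRCm38.p6). Capitals mark a start codon at the annotated start and any match to TAATTA, the core bound by homeodomain factors such as Lhx2, to CCCNNGGG, the core bound by Ebf factors, or to TATAAA, searched on both strands and each counted by itself.
Olfr571 (chr7:102909788-102910087, minus strand): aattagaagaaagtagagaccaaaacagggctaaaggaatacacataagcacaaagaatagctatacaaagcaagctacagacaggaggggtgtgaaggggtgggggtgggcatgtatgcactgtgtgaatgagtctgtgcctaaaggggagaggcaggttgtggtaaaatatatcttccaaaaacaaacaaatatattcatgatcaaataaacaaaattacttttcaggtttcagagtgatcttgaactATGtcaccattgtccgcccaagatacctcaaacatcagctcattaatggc
Olfr821 (chr10:130033378-130033677, plus strand): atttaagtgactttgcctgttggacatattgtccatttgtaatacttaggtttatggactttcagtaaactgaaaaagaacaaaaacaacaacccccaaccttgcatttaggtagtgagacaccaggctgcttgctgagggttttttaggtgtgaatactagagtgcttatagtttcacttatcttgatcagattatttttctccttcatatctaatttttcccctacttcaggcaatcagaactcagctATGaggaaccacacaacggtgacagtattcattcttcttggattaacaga
Olfr1065 (chr2:86445955-86446254, minus strand): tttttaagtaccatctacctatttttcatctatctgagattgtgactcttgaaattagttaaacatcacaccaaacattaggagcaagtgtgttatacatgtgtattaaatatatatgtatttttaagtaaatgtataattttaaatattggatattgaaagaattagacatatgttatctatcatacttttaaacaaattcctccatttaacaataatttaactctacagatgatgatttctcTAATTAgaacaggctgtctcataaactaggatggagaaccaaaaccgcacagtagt
Olfr689 (chr7:105313756-105314055, plus strand): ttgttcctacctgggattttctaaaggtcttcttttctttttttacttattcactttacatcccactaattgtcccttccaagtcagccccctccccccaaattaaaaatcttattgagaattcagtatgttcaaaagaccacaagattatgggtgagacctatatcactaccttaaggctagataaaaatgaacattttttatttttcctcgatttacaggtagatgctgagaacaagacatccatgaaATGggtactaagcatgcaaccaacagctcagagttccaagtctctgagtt
Olfr571, Olfr821 and Olfr689 have ATG at the annotated start, and Olfr1065 holds a TAATTA. Windows were found for 440 of the 508 genes, and 72.5% of them have ATG at the annotated start, against 6.75% of all genes, so that in those the annotation starts with the coding sequence and the distance to the start of transcription is unknown. TAATTA was in 17.7% of the 440 windows and in 5.31% of 27025 windows of all genes, TATAAA in 37.7% and 14.2%, and CCCNNGGG in 2.95% and 13.4%. The mean GC content was 36.6% against 53.6%. In the windows of 324 olfactory receptor genes not chosen by the rule the shares were 20.1%, 46.6% and 3.40%.

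The levels of the olfactory receptor genes moved together from region to region. Their median on the WT and KO arrays was -2.48 and -2.29 in hippocampus, -2.61 and -2.74 in bulb, -2.82 and -2.98 in prefrontal cortex, -2.92 and -2.81 in striatum, -3.26 and -3.32 in hypothalamus and -3.44 and -3.56 in amygdala. The hippocampus arrays were the highest and the amygdala arrays the lowest, and no array of either region overlapped with the other 10. Around each gene's mean over the 6 regions, the median stood at 0.54 in hippocampus, 0.22 in bulb, 0.07 in prefrontal cortex, 0.04 in striatum, -0.34 in hypothalamus and -0.58 in amygdala. In a bulk sample, fewer cells of a type and less RNA per cell cannot be told apart, and here neither can region and slide. Other genes weighted to the same brightness (non-olfactory genes above background on 9 or more arrays, in bands of mean level 0.5 wide) had 0.15, 0.15, -0.04, 0.13, -0.15 and -0.33 in the same order. No test of this difference was run. The 47 vomeronasal receptor genes above background on as many arrays had 0.48 in hippocampus and -0.57 in amygdala.

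**Figure D1:**
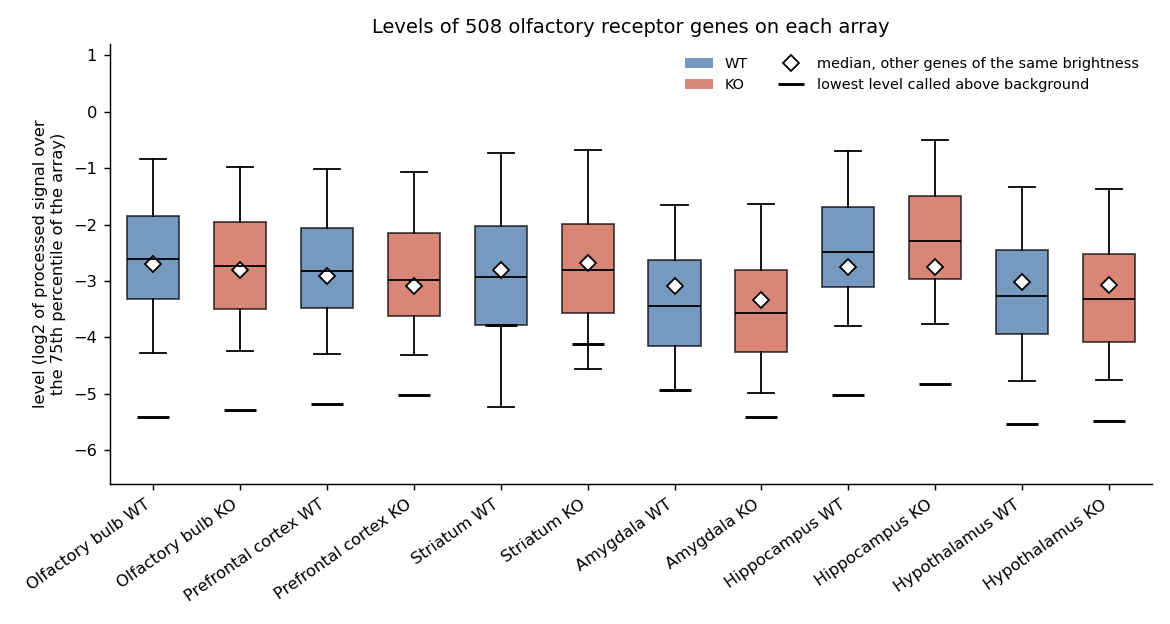
Levels of the 508 olfactory receptor genes on each array (log2 of processed signal over the 75th percentile). Boxes give the quartiles and the median, whiskers the 5th and 95th percentiles, diamonds the median of other genes of the same brightness and short bars the lowest level called above background. The hippocampus medians, -2.48 and -2.29, lie highest, the amygdala medians, -3.44 and -3.56, lowest, and the short bars are highest on the striatum arrays, at -3.78 and -4.11.

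The background level itself differed between arrays. The lowest level called above background was -3.78 on striatum WT and -4.11 on striatum KO, and -4.83 to -5.54 on the other 10 arrays. On striatum WT 172 of the 508 genes and on striatum KO 82 were not above background, on amygdala WT 53, on amygdala KO 8, and on each of the other 8 arrays 4 or fewer. The median of the negative control spots was -5.77 and -6.17 in striatum, -7.15 and -7.04 in hippocampus and -6.99 and -7.51 in amygdala. Their part in the order of the regions was not tested.

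Hippocampus was the highest region in 354 of the 508 genes (69.7%) and amygdala the lowest in 355 (69.9%). Of other genes at the same brightness, 25.9% were highest in hippocampus and 40.5% lowest in amygdala. Among the 327 genes above background on all arrays, hippocampus was highest in 209 and amygdala lowest in 260. The shares of other genes are weighted to the brightness of the 508 and not to that of these 327. With normexp in place of the scanner software's correction, hippocampus was highest in 122 genes and striatum in 366, while amygdala was lowest in 439. Normexp was run with an added offset of 50, which lifts dim probes most on arrays of low signal. The 75th percentile was lowest on the striatum arrays, at 208 (WT) and 272 (KO). The median of all genes in striatum against the other regions rose too, from 0.09 to 0.44 with normexp. The offset alone raises striatum, so normexp cannot decide the order of hippocampus and striatum. The pattern was not limited to dim probes. In the band from -1.5 to -1, 35 olfactory receptor genes had a median of 0.47 in hippocampus and -0.55 in amygdala, where 1479 other genes had 0.04 and -0.09. In the band from 0 to 0.5, 3 genes had 0.40 and -0.60, where 1308 others had 0.01 and 0.00. The 2 brightest genes did not have it in full: Olfr279 and Olfr571 had 0.13 and 0.19 in hippocampus, below 0.22 and 0.34 in striatum, and -0.17 and -0.39 in amygdala, with Olfr279 lower still in bulb, at -0.24.

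**Figure D2:**
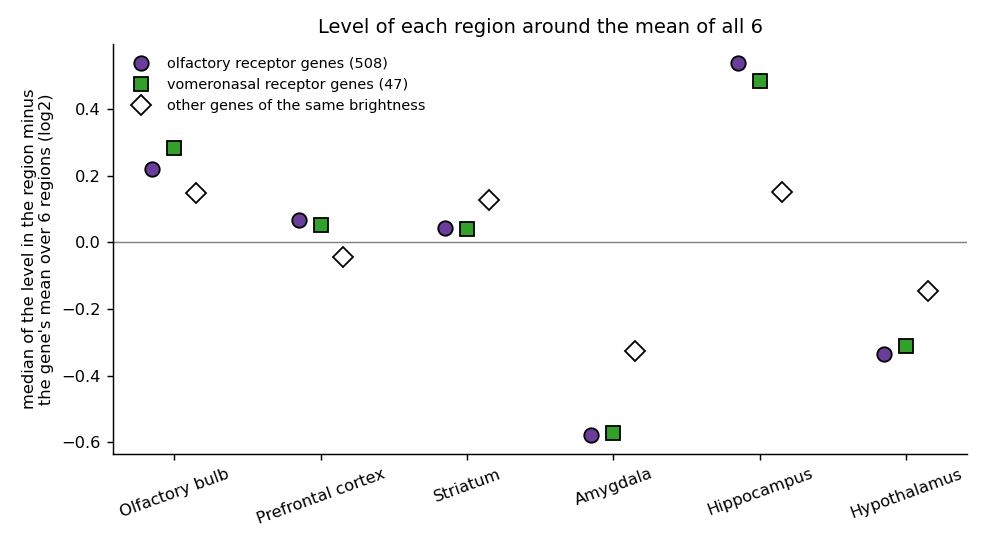
Median over genes of the level in a region minus the gene's own mean over 6 regions (log2), for 508 olfactory receptor genes (circles), 47 vomeronasal receptor genes (squares) and other genes of the same brightness (diamonds). Circles and squares lie at 0.54 and 0.48 in hippocampus and at -0.58 and -0.57 in amygdala, and the diamonds at 0.15 and -0.33.

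The pattern was spread over the genome. Olfactory receptor genes lie in clusters, here split where neighbours were over 1 Mb apart, and the 508 genes fell into 41 of them. In the 16 clusters with 15 or more genes on the array, 50% to 88.2% of the genes met the rule, the cluster median in hippocampus ran from 0.46 to 0.63 and that in amygdala from -0.67 to -0.50. The cluster around the beta-globin genes, which holds the class I receptors, contributed 66 of its 108 genes (61.1%), and the rest of the genome 442 of 778 (56.8%).

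Each region was tested against the mean of the other 5 with limma over 24860 genes and transcripts, with genotype as a covariate. A call needed a difference of at least 1 on the log2 scale together with a Benjamini-Hochberg adjusted p under 0.05, and with 2 arrays per region the p-values measure the spread between these arrays. In hippocampus, 85 of the 508 genes were higher, 16.7%, against 5.11% of all genes tested and 5.75% of other genes at the same brightness. All 85 were above background on both hippocampus arrays and 33 of them on all 12 arrays. Of the 327 genes above background on all 12, 10.1% were higher. The 5.75% is weighted to the brightness of the 508 genes and not to that of these 327. No gene was called lower by limma (2 at an unadjusted p under 0.05), against 2.39% of all genes. The median of the 508 was 0.65, against 0.09 for all genes. The count depends on the scaling, with 52 higher after scaling to the median of each array, 47 after quantile normalization and 3 with normexp, where the median was 0.49, 0.49 and 0.26.

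The largest differences in hippocampus were those of Olfr444, Olfr643, Olfr1019, Olfr1240, Olfr54 and Olfr996, from 1.88 to 1.75. Olfr1240 stood at -1.80 and -0.74 in hippocampus (WT and KO), -2.38 and -2.96 in bulb, -2.47 and -2.75 in prefrontal cortex, -3.14 and -3.28 in striatum, -3.35 and -3.10 in hypothalamus and -3.68 and -3.59 in amygdala. Both hippocampus arrays were above the other 10, by 1.80 ± 0.27 (SE, limma adjusted p = 0.0030). Olfr1019 had -2.49 and -2.54 in hippocampus and -5.45 to -3.68 on the other 10 arrays. It was higher by 1.83 ± 0.19 (SE, limma adjusted p = 0.00078), without overlap. Olfr444 had -3.11 and -2.11 in hippocampus and -5.29 to -3.51 elsewhere, also without overlap, and differed by 1.88 ± 0.30 (SE, limma adjusted p = 0.0037). Markers of the choroid plexus moved in the same region: 8 of 11 tested were higher in hippocampus by the same rule, and none of the 12 was below background on both hippocampus arrays. The sum of their linear levels was 17.2 and 29.5 on the hippocampus arrays and 1.82 to 25.7 on the others. It was 25.7 on the array labelled amygdala WT and 25.5 on hypothalamus WT, where the olfactory receptor genes were low. Its part in the result was not tested.

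In amygdala, 43 of the 508 genes (8.46%) were lower, against 5.39% of all genes and 7.35% of other genes at the same brightness, and 26 of the 43 were above background on all 12 arrays. No gene was called higher (limma; 2 at an unadjusted p under 0.05), against 1.72%. The median was -0.69, against -0.15 for all genes. Without the array labelled amygdala WT, 12.8% were lower and the median was -0.76. Scaling to the median left 6 lower and 1 higher, quantile normalization 5 and 1, and normexp 1 and 0, with medians of -0.42, -0.40 and -0.56. Olfr1445 stood at -3.31 and -3.36 in amygdala and at -2.94 to -1.07 on the other arrays. Both amygdala arrays were below the other 10, by 1.29 ± 0.13 (SE, limma adjusted p = 0.0011). Olfr689, Olfr67 and Olfr1469 were lower by 1.43, 1.28 and 1.27. Without the array labelled amygdala WT these differences were -1.03, -1.52 and -0.91, and Olfr1469 was no longer called. The genes with the largest fitted differences, Olfr461 and Olfr299, were not above background on either amygdala array, so only a bound is given against the lowest level above background on each array. Olfr461, measured at -6.33 and -6.20, was at least 1.75-fold lower than the mean of the other 5 regions. Olfr299, at -6.21 and -6.45, was at least 1.64-fold lower. Their limma adjusted p-values, 0.00056 and 0.00035, belong to the fit of the measured values and not to these bounds. Both bounds are below the 2-fold that a call needed. In hypothalamus, 4 genes were lower, Olfr167, Olfr1309, Olfr93 and Olfr1246, by 1.00 to 1.16, 0.787% of the 508 against 1.7% of all genes. No gene was called higher there (limma; 3 at an unadjusted p under 0.05), against 1.84%. Without the amygdala arrays 6.69% were lower, and without the hippocampus arrays 0.

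The olfactory bulb, where the axons of the sensory neurons end, had 11 genes higher (2.17%), against 7.06% of all genes and 9.04% of other genes at the same brightness, and no gene called lower (limma; 20 at an unadjusted p under 0.05), against 5.51%. The median was 0.26, against 0.04 for all genes, and with normexp it was -0.01. The 6 largest differences were those of Olfr976, Olfr689, Olfr1355, Olfr1223, Olfr713 and Olfr739, from 1.39 to 1.16. Olfr976 stood at -2.18 and -2.41 in bulb and at -4.33 to -3.10 on the other 10 arrays. Both bulb arrays were above all others, by 1.39 ± 0.22 (SE, limma adjusted p = 0.0022). Olfr689 had -1.61 and -2.15 in bulb, -2.69 and -2.79 in hypothalamus, -2.91 and -2.61 in prefrontal cortex, -3.09 and -2.72 in hippocampus, -3.74 and -3.27 in striatum and -4.63 and -3.74 in amygdala. It was highest in bulb, by 1.34 ± 0.24 (SE, limma adjusted p = 0.0031), and lower in amygdala than in the other 5 regions, by 1.43 ± 0.24 (SE, limma adjusted p = 0.0039). The amygdala difference includes the array labelled amygdala WT and was smaller without it. The count of 11 fell to 6 after scaling to the median, 5 after quantile normalization and 0 with normexp.

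Genes of the nose other than receptors were measured beside them. Omp, the marker protein of mature sensory neurons, stood at -1.55 and -1.68 in bulb and at -3.79 to -3.13 elsewhere. Of 13 sensory neuron markers, 3 were higher in bulb, Omp by 1.88, Stoml3 by 3.62 and S100a5 by 8.28, and 2 were lower, Kirrel2 and Ano2. S100a5 is also a gene of the bulb itself. The sum of the 13 linear levels was 63.0 and 51.8 in bulb and 13.6 to 35.1 elsewhere. Without S100a5 it was 29.2 and 23.3 in bulb, inside the range of 13.5 to 34.98 elsewhere. That sum mostly follows Gng13, at 4.65 and 4.28 in bulb and 4.95 and 4.73 in striatum, and says little about the dimmer markers. Of the supporting cell and gland markers, 4 of 6 tested were higher in bulb, with Cyp2g1 by 2.29 and Cyp2f2 by 2.65. Cyp2f2 was also called higher in hypothalamus, by 2.68, at -1.40 and -1.06 there and -0.66 and -1.85 in bulb. Obp2a, Bpifb3 and Bpifb9a were not above background on either bulb array. The sum of the 12 was 5.22 and 3.20 in bulb and 1.17 to 2.24 elsewhere. Their part in the 11 olfactory receptor genes was not tested. In the signalling list, 0 of 17 tested genes were higher and 1 lower in bulb. Gnal was at 1.01 and 0.99 in striatum and at -3.07 to -2.31 on the other 10 arrays. Of 10 trafficking genes and chaperones 2 were higher in bulb, Rtp2, which carries receptors to the cell surface, by 1.28 and Atf5 by 1.62, and 1 was lower. Of 12 genes of receptor choice 0 passed in bulb in either direction.

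In striatum, 19 genes were higher (3.74%), against 13.1% of all genes and 15.3% of others at the same brightness. Olfr821, Olfr1065 and Olfr127 led them. Olfr821 stood at 1.27 and 0.77 in striatum, -0.72 and -1.04 in bulb, -1.44 and -1.80 in prefrontal cortex, -1.61 and -2.17 in amygdala, -1.15 and -1.22 in hippocampus and -1.67 and -1.75 in hypothalamus. Both striatum arrays were above the other 10, by 2.47 ± 0.11 (SE, limma adjusted p = 9.8e-06). Olfr1065 had 0.62 and 0.63 in striatum and -2.56 to -0.54 elsewhere. It did not overlap either, and differed by 2.22 ± 0.15 (SE, limma adjusted p = 3.4e-05). Olfr127 had -0.70 and -1.44 in striatum and -3.18 to -2.25 elsewhere, a difference of 1.56 ± 0.13 (SE, limma adjusted p = 7.0e-05). In the gene order the probes beside Olfr821 were dim: Olfr820 was above background on 1 array and Olfr822 had a mean of -4.05.

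The values of 3 further striatum genes rested on a single array. Olfr1507 stood at -2.82 on WT and -0.58 on KO, and Olfr749 and Olfr992 at -1.16 and -1.34 on WT and -3.12 and -3.03 on KO. In these genes the other striatum array lay among those of the other regions. Lower in striatum were 26 genes (5.12%), against 9.85% of all genes, and 19 of these were not above background on either striatum array. Olfr385 was not called above background although its striatum mean, -3.71, lay above the lowest level called so. Its 3.07-fold is the measured difference and not a bound. That lowest level is taken over all spots of an array, so the bounds are not strict for a single probe. The bound was between 1.01-fold and 1.85-fold in 14 others. The remaining 4 have no fold because their level elsewhere was under the lowest level above background in striatum. Olfr281 was at least 1.01-fold, Olfr875 at least 1.46-fold, Olfr1451 at least 1.08-fold, Olfr54 at least 1.06-fold and Olfr46 at least 1.63-fold lower. With normexp 25 genes were higher and 0 lower in striatum, and these 5 turned to the other direction. These 5 were not above background on either striatum array. Their normexp values there rest largely on the added offset of 50, so the turn cannot show a direction. Scaling to the median gave 11 higher and 34 lower, and quantile normalization 12 and 32. The median of the 508 genes was 0.06, against 0.09 for all genes. In prefrontal cortex 1 gene was higher, Olfr1471 (0.197%, against 2.88%), at -2.05 on the WT array and -3.84 on the KO array, with the KO array among the other regions. No gene was called lower there (limma; 27 at an unadjusted p under 0.05), against 3.02%.

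**Figure D3:**
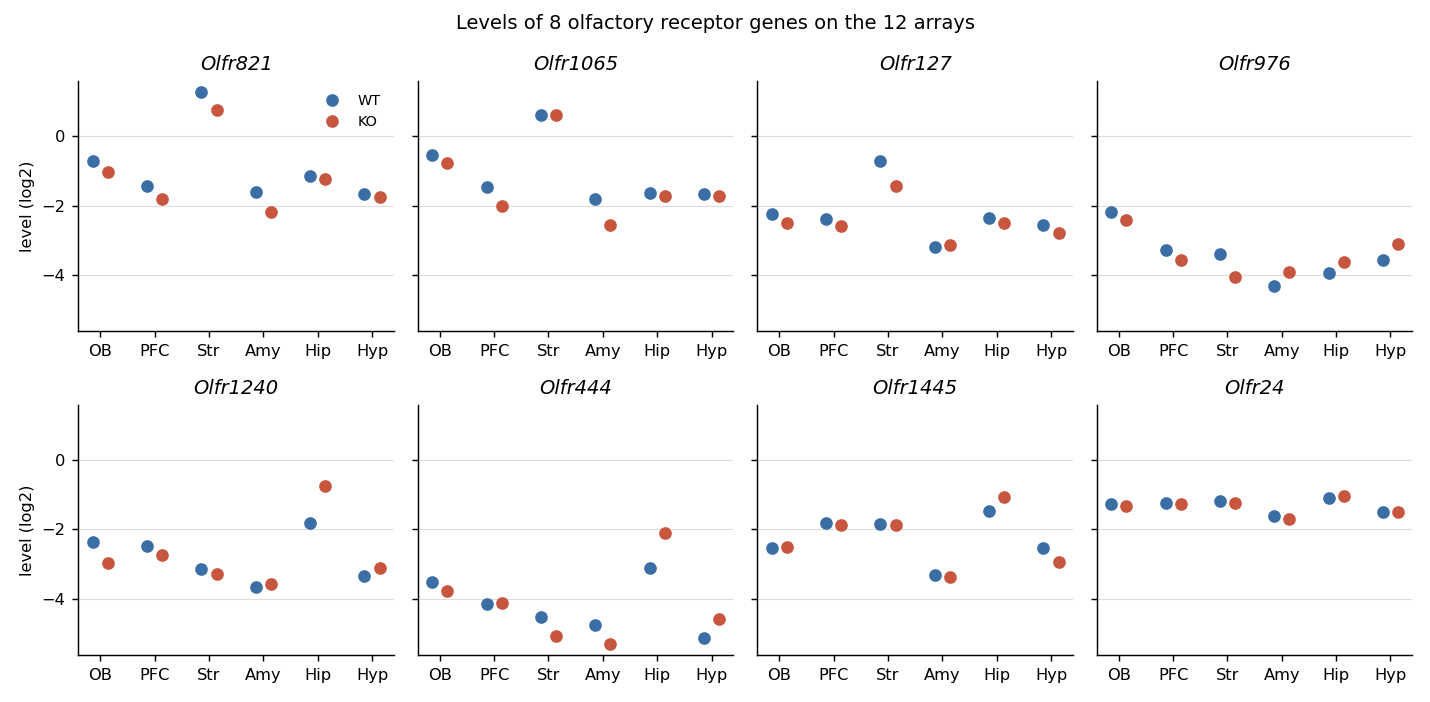
Levels (log2) of 8 olfactory receptor genes on the WT (blue) and KO (red) array of olfactory bulb (OB), prefrontal cortex (PFC), striatum (Str), amygdala (Amy), hippocampus (Hip) and hypothalamus (Hyp). Olfr821, Olfr1065 and Olfr127 are highest on both striatum arrays, Olfr976 on both bulb arrays, Olfr1240 and Olfr444 on both hippocampus arrays, Olfr1445 is lowest on both amygdala arrays, and Olfr24 stays between -1.70 and -1.04.

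The effect of the IL-18 deletion was tested across the 6 regions with limma, with the region as a block. None of the 508 olfactory receptor genes passed an adjusted p of 0.05, where 0.0402% of all genes did (10 of 24860). An unadjusted p under 0.05 was found in 66 of the 508 (13%), in 23.3% of all genes and in 22.0% of other genes at the same brightness. The smallest adjusted p was 0.083. The median difference was -0.015, against -0.023 for all genes, with 228 genes higher and 280 lower on the KO arrays. This split turned to 312 and 196 after scaling to the median and to 99 and 409 with normexp. With normexp 6 of the 508 genes passed and with a trended, robust variance 2 did, while all genes past the threshold rose to 699 and 161. No gene of the signalling, trafficking, receptor choice or sensory neuron lists passed in either direction. Without the amygdala arrays 0 of the 508 passed too.

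The 5 olfactory receptor genes of smallest p are given as values. Olfr1184 stood at -1.88, -2.53, -2.67, -3.13, -3.93 and -4.01 on the WT arrays of hippocampus, prefrontal cortex, bulb, amygdala, hypothalamus and striatum and at -0.57, -1.83, -1.84, -1.52, -2.27 and -3.03 on the KO arrays. The KO array was the higher in 6 of 6 regions, by 0.70 to 1.66, with a mean of 1.18 ± 0.15 (SE, limma adjusted p = 0.083). Olfr355, at 0.56, Olfr960, at 0.62, and Olfr996, at 0.83, were also higher in 6 of 6 regions, and Olfr1153, at -0.31, was lower in 6 of 6, each with a limma adjusted p of 0.093. Olfr996 has another probe. Its median difference was 0.89 by the brightest probe and 0.11 by the other. Olfr1184 and Olfr996 were the 2 genes that passed with the trended, robust variance, and both passed with normexp, at 0.64 and 0.34. In all, 43 of the 508 genes (8.46%) moved one way in all 6 regions, 17 up and 26 down, against 13.5% of other genes at the same brightness. Of the 59 genes on the chromosome of Il18, 8 (13.6%) had an unadjusted p under 0.05, and of the 449 on other chromosomes 58 (12.9%) did.

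With a single pool on each side, differences within a region carry no test. The median of the 508 differences KO minus WT was 0.14 in hippocampus, 0.13 in striatum, -0.05 in hypothalamus, -0.10 in prefrontal cortex, -0.13 in bulb and -0.13 in amygdala. For other genes at the same brightness it was 0.02, 0.11, -0.04, -0.13, -0.08 and -0.15. In hippocampus 381 of the 508 (75%) were higher on the KO array, against 52.8% of the others. In the amygdala, prefrontal cortex and striatum the sign turned with the processing: the prefrontal cortex median was 0.02 after scaling to the median, the amygdala median was 0.08 after scaling to the median and 0.06 after quantile normalization, and the striatum median was -0.13 with normexp. The hippocampus median was 0.12 after scaling to the median, 0.15 after quantile normalization and only 0.015 with normexp.

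A difference of 2-fold or more, among genes above background on both arrays, was seen in few of them. In bulb 6 of 508 were higher and 3 lower on the KO array, where 0.308% and 0.616% of all genes were. In prefrontal cortex it was 5 and 4 of 503 (0.865% and 3.46% of all genes), in striatum 8 and 7 of 336 (0.8% and 0.76%), and in amygdala 8 and 14 of 450 (0.521% and 6.34%). In hippocampus it was 16 and 3 of 506 (0.757% and 0.997%) and in hypothalamus 7 and 10 of 502 (0.364% and 0.623%). Other genes at the same brightness had 0.907% higher and 10.4% lower in amygdala and 1.10% and 1.56% in hippocampus. After scaling to the median the amygdala counts turned to 15 higher and 7 lower.

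Among genes above background on both arrays of the region, the largest difference was that of Olfr520. It stood at -4.66 on the bulb WT array and -1.43 on the bulb KO array, 9.36-fold higher, with an error of 0.28 from the scanner's spot errors. The bulb KO array held its highest value of the 12. Olfr830 was 5.92-fold higher on the amygdala KO array, at -2.10 against -4.67, and Olfr967 4.83-fold higher on the hypothalamus KO array, at -1.37 against -3.64. Olfr1507 was 4.71-fold higher on the striatum KO array. In each of these genes the KO array of that region held the highest value of the 12. Under the same limit, the largest falls on a KO array were 5.21-fold for Olfr677 and 5.04-fold for Olfr2 in amygdala, 5.17-fold for Olfr944 in striatum, 3.62-fold for Olfr1274 in hypothalamus, 3.47-fold for Olfr1471 in prefrontal cortex, 3.28-fold for Olfr345 in bulb and 2.59-fold for Olfr419 in hippocampus. Olfr2 stood at -1.75 on the amygdala WT array and at -4.27 to -2.68 on the other 11. Olfr944 was also 3.09-fold lower in prefrontal cortex and differed by -0.16 to 0.19 in the other 4 regions.

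The SD of the KO minus WT difference over the 6 regions had a median of 0.307 over the 506 genes with all 12 values, from 0.052 to 1.72, and 0.307 in other genes weighted to the same brightness, against 0.20 in all other genes above background on 9 or more arrays. The SD was above the median of the other genes in its band of brightness in 243 of the 506 (48.0%), above their 90th percentile in 48 (9.49%) and below their 10th in 43 (8.50%). It fell with brightness in both sets, from 0.41 and 0.43 between -4.5 and -4 to 0.24 and 0.21 between -1.5 and -1. The ratio of the medians stayed between 0.92 and 1.05 under the alternatives.

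**Figure D4:**
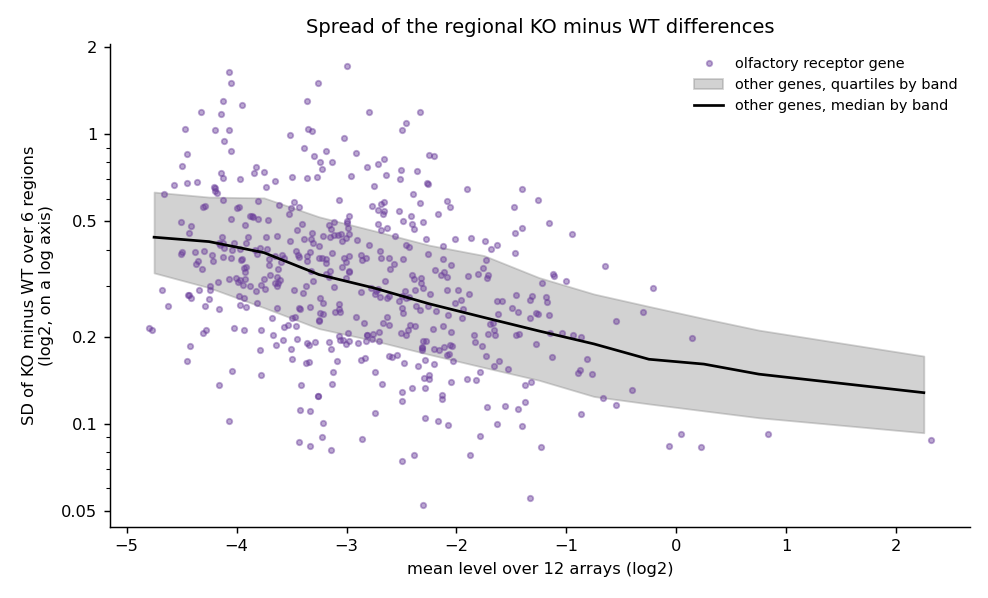
SD over 6 regions of the KO minus WT difference (log2, on a log axis) against the mean level over 12 arrays, 1 point for each of 506 olfactory receptor genes. The line and grey band give the median and quartiles of other genes in bands 0.5 wide; 243 of the points lie above the line, and both sets fall with brightness.

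The 5 largest spreads were those of Olfr961, Olfr482, Olfr507, Olfr520 and Olfr677, from 1.72 to 1.31. Olfr961 stood at 0.27 on striatum KO and at -3.91 to -2.67 on the other 11 arrays. Its other probe, with a mean of -4.57, was above background on 8 arrays. Olfr507 stood at -0.19 on the same array and at -4.38 to -2.81 on the others. Olfr482 fell to -6.25 on hippocampus KO, beside -2.85 on hippocampus WT. The striatum WT values of Olfr961 and Olfr507 and the hippocampus KO value of Olfr482 were not above background. The 5 smallest were those of Olfr32, Olfr24, Olfr738, Olfr1260 and Olfr374, from 0.052 to 0.078. Olfr24 differed by -0.10 to 0.07 between KO and WT in the 6 regions.

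The value of a gene can rest on the probe. Of the 508 genes, 34 had several probes, which gave 37 pairs with the brightest. The mean levels differed by a median of 1.43, by over 1 in 22 pairs (59.5%) and by over 3 in 9. In 7238 pairs of probes of other genes the median was 2.42, and 77.8% differed by over 1. Where the brightest probe was below -1, the median was 1.36 in 35 pairs here and 1.73 in 2084 pairs of other genes. The other probe was above background on 9 or more arrays in 18 pairs and on 0 arrays in 6. Olfr175 had probes at -0.67 and -6.22, Olfr601 at -2.50 and -7.08, and Olfr77 at -2.52, -3.09 and -6.92. The second brightest gene, Olfr279, had probes at 0.83 and -3.11, both above background on all 12 arrays. Over the 12 arrays the correlation between the 2 probes of a pair had a median of 0.49, as a description of arrays that share regions and slides. Brightness set the rule, so the lower probes of these genes would have kept some of them out.

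**Figure D5:**
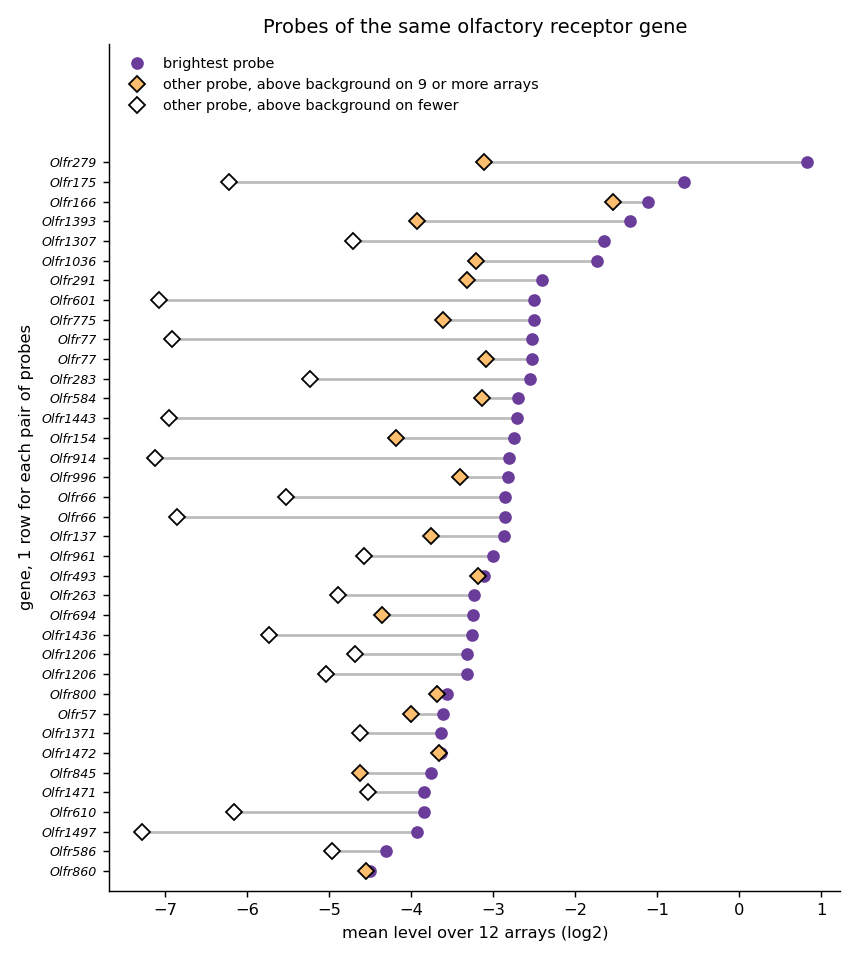
Mean level over 12 arrays (log2) of the brightest probe (circle) and of each other probe (diamond, filled where above background on 9 or more arrays) for the 34 olfactory receptor genes with several probes, 1 row for each of 37 pairs. The probes differ by a median of 1.43, and by 5.55 in Olfr175.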

How the data were processed

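RNA of 12 pools of mouse brain tissue was hybridised to 12 single-colour arrays. The deposited spot intensities come from Agilent Feature Extraction 9.5.3.1, which subtracted background and detrended each array, per the file headers. A table of ratios of KO to WT, deposited by the authors, served as an alternative; how it was made was not stated in the files. Values were log2 of the processed signal minus the 75th percentile of the array's gene spots. Control and outlier spots were left out, and spots of a probe were averaged. Probes were named through RefSeq accessions (22951 of 41174, 55.7%), and the brightest probe stood for a gene.

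Genes above background on 6 or more arrays (24860) were tested with limma 3.58.1 (R 4.3.3), with Benjamini-Hochberg adjustment over all of them. The fits were first tested on simulated data. Nothing says that arrays are replicates beyond region and genotype, so p-values measure only the spread between these arrays, and their number limits the precision. Genes named are the 10 brightest, the 5 of smallest p, up to 6 per region and direction, the 2 largest within a region in each direction, and the 5 largest and smallest spreads. The genes and lists were chosen with earlier results of these data known. Alternatives were median scaling, quantile normalization, normexp (offset 50, on median spot and background signals, in place of the mean signal planned), other probe, filter, variance and membership rules, and leaving out arrays. The offset of normexp shrinks the differences of dim probes, which bears on its counts and 2-fold shares. It also lifts dim probes most on arrays of low signal, here those of striatum.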

Additional observations from a re-analysis of the deposited data

Results flagged for a closer look

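The 36 results looked at were the median of the olfactory receptor genes and the values of named genes. In 8 of them, all named genes, the KO minus WT difference of 1 region stood apart from those of the other 5. The gap to the nearest value, as a share of the whole range, was above Dixon's 95% limit for 6 values. Chance alone passes this limit in about 1 in 20 groups. Several of these genes were named because a difference or a spread was large, so their number is not read against that share. Over all 506 olfactory receptor genes with 12 values, 56 (11.1%) passed the limit, and 10.3% of other genes did. The region that stood apart was striatum in 21 of the 56, amygdala in 12, hippocampus in 11, hypothalamus in 6, prefrontal cortex in 4 and bulb in 2.

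In striatum the KO array stood apart upward in 4 genes. Olfr961 differed by 3.94 there and by -0.63 to 0.06 in the other regions, a gap of 0.850 of the range. Olfr507 differed by 3.71 against -0.41 to 0.77 (0.714). Olfr1507 differed by 2.23 against -0.27 to 0.42 (0.728), and Olfr622 by 1.63 against -0.50 to -0.19 (0.856). Olfr749 stood apart downward, at -1.96 against -0.45 to 0.24 (0.685). Outside striatum, Olfr476 differed by 1.95 in amygdala against -0.31 to 0.16 (0.792), and Olfr967 by 2.27 in hypothalamus against -0.27 to 0.42 (0.729). Olfr482 differed by -3.40 in hippocampus against -0.38 to 1.19 (0.657). Its level on hippocampus KO was not above background, and with such values raised to the lowest level above background on their array its difference was -1.98 and its gap 0.537, within the limit. Olfr961 and Olfr507 were not above background on striatum WT, and their gaps on that basis were 0.850 and 0.705.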

How the results depend on the processing

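For 31 comparison results there were 328 alternatives. Of these, 220 stayed within a set tolerance of the main value, 56 were weaker, 18 stronger, 29 moved and 5 reversed. The tolerance was on size and not on sign. The KO minus WT median across regions, -0.015 in the main setting and 0.042 after median scaling, counted as within it. The cause of each change was not tested. All genes past the threshold for KO against WT numbered 17 with quantile normalization, 699 with normexp, 20 on genes above background on all arrays, 161 with a trended, robust variance, 2 without the region block and 1 to 5 with a region left out. Of the olfactory receptor genes 6, 2 and 0 passed with normexp, the robust variance and a region left out. The labels give no replicate numbers. The region block pairs the WT and KO array of each region, and without it 0 olfactory receptor genes passed too.

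The share called under median scaling, quantile normalization and normexp was 1.18%, 0.984% and 0% higher in bulb, 10.2%, 9.25% and 0.591% higher in hippocampus, 1.18%, 0.984% and 0.197% lower in amygdala, and 0.197%, 0.197% and 0% lower in hypothalamus. In prefrontal cortex it was 0.394% with median scaling and 0% with normexp, the mean of probes, no genotype term or genes on 12 arrays. In striatum 2.17% and 2.36% were higher with median scaling and quantile normalization, and 0% lower with normexp. On genes above background on 12 arrays, 1.22% were higher in bulb, 10.1% higher in hippocampus, 0% lower in striatum and 1.53% (tested) or 1.22% (membership) lower in hypothalamus. With membership on 6 arrays it was 3.73% in bulb, 0.508% in prefrontal cortex and 1.19% in hypothalamus. Without the array labelled amygdala WT, 12.8% were lower in amygdala and 1.38% in hypothalamus.

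Medians against the other 5 regions under median scaling, quantile normalization and normexp were 0.10, 0.081 and -0.010 in bulb, -0.065, -0.047 and 0.61 in striatum (0.17 on 12 arrays), -0.42, -0.40 and -0.56 in amygdala, 0.49, 0.49 and 0.26 in hippocampus and -0.32, -0.31 and -0.35 in hypothalamus. With normexp, Olfr281, Olfr875, Olfr1451, Olfr54 and Olfr46 turned to 0.48, 0.42, 0.51, 0.48 and 0.33 in striatum, where the offset makes up much of their value. The KO minus WT median turned to 0.082 and 0.059 in amygdala with median scaling and quantile normalization, and in striatum to -0.0041 with quantile normalization, -0.13 with normexp and 0.00086 by the authors' deposited ratio.

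With a region left out, 1.18% to 4.53% were higher in bulb, 0% to 1.18% in prefrontal cortex, 2.17% to 4.92% in striatum and 11.4% to 21.3% in hippocampus, and 2.95% to 6.89% were lower in striatum, 5.51% to 21.1% in amygdala and 0% to 6.69% in hypothalamus. The medians ran from 0.13 to 0.41 in bulb, -0.050 to 0.22 in prefrontal cortex, -0.087 to 0.19 in striatum, 0.54 to 0.72 in hippocampus, -0.55 to -0.29 in hypothalamus and -0.80 to -0.59 in amygdala. Leaving out arrays could not be applied within a region, which has 1 pair.

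The share 2-fold apart within a region with normexp was 1.33% in amygdala, 0.595% in striatum, 0.398% in hypothalamus, 0.395% in hippocampus, 0.394% in bulb and 0.199% in prefrontal cortex. By the authors' deposited ratio it was 0.795% in prefrontal cortex, 0.893% in striatum, 3.11% in amygdala and 2.19% in hypothalamus, and with membership on 12 arrays 0.917% in bulb, 2.14% in amygdala and 2.14% in hypothalamus. Membership on 12 arrays left 327 genes with a median level of -2.43. The striatum WT and KO arrays had the most olfactory receptor genes not above background, 172 and 82 of the 508.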
